A study of Mus musculus with 36 samples.

Results

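The genes of the eukaryotic translation initiation and elongation factors were followed in ribosome-bound RNA of mouse cortical pyramidal neurons. The set holds every protein-coding gene whose symbol begins with Eif1 to Eif6 or with Eef1 or Eef2, with pseudogenes left out. It has 68 members among 55470 gene rows. It takes in the factors themselves and the kinases, binding proteins and methyltransferases that carry the same symbols. A filter on low counts left 60 members for testing, and of these 52 would have passed on the naive libraries alone.

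Mice were heterozygous for a mutated Shank3 allele, Shank3(ΔC/+), or were littermates with both copies intact, Shank3(+/+), called Shank3 and WT below. Shank3 encodes a scaffold protein of excitatory synapses. All mice, controls included, carried HA-Rpl22(f/+) and Camk2a-Cre(+/-) on the C57BL6JL strain, so the HA tag marked ribosomes only in cells in which Camk2a-driven Cre had acted. Mice either stayed naive in the home cage or swam, and swimmers were taken 1 h or 4 h later. In cohort 1, 6 WT and 5 Shank3 libraries from 1 h after the swim stand beside 3 naive libraries of each genotype. In cohort 2, 5 WT and 6 Shank3 libraries from 4 h after the swim stand beside 4 naive libraries of each genotype. Each swim group was compared with the naive group of its own genotype and cohort, so time after the swim and cohort cannot be told apart. The sources used here do not give age or sex.

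Initiation factors bring the initiator tRNA and the small ribosomal subunit to the capped end of an mRNA, scan to the start codon and let the large subunit join. Elongation factor 1A delivers each aminoacyl-tRNA, and elongation factor 2 moves the ribosome along by a codon. Cells set the rate of protein synthesis at several of these steps, above all through kinases that phosphorylate eIF2 and through proteins that hold the cap-binding factor eIF4E, and neurons use both in synaptic plasticity and stress.

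Libraries held 0.884 to 3.52 M counts. Levels are given in CPM (counts scaled to a common library size) after edgeR's TMM scaling, and a fold change is a log2 value with its standard error (SE). Summed markers of pyramidal neurons, 8 of 8 tested, were at 1360 to 2080 CPM in naive libraries and 2230 to 3920 CPM at 4 h. Of 4 microglial markers only Csf1r was tested, and P2ry12 was at 0 in every group other than Shank3 at 4 h. The sum was at 555 to 1080 CPM naive and 162 to 384 CPM at 4 h. In naive WT mice of cohort 1 Cx3cr1 and C1qa were at 0 as well, so the sum there, 998 to 1080 CPM, was Csf1r alone. Oligodendrocyte markers, 3 of 5 tested, summed to 24.3 to 57.9 CPM in naive libraries and 63.9 to 110 CPM at 4 h, with no overlap. Interneuron markers, 3 of 6 tested, were at 4.71 to 31.9 CPM naive and 10.8 to 42.6 CPM at 4 h, and astrocyte markers, 2 of 5 tested, at 5.3 to 21.1 and 11.1 to 21.9 CPM. Endothelial markers were at 1.73 CPM or less in every library. The part of these marker shifts in the results was not tested. The count of Shank3, taken over the whole gene, cannot check the deleted part: it was 6.27 ± 1.11 CPM in naive WT (SD, n = 4) and 15.1 ± 1.52 CPM in naive Shank3 mice of cohort 2 (SD, n = 4), and its genotype effect averaged over conditions was 0.65 (SE 0.164, edgeR adjusted p = 0.794).

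Libraries differed in a property that has to be read beside every swim result. Where an antisense gene and a protein-coding gene overlap on opposite strands, the percent of their counts that lay on the protein-coding row, here the pair share, was 10.7 to 15.0% in naive libraries. It was 11.4 to 17.0% at 1 h, 17.0 to 31.6% in WT mice at 4 h and 17.5 to 33.1% in Shank3 mice at 4 h. The 4 libraries over 30% were WT replicate 5 and Shank3 replicates 1, 3 and 5, all at 4 h. In 3 other libraries, naive Shank3 replicates 6 and 7 and WT replicate 5 at 1 h, ribosomal RNA rows held over 10% of the counts.

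In naive mice the most abundant member per kilobase of exon with no gene on its opposite strand was Eef1a2, the neuronal and muscle form of elongation factor 1A, at 112 ± 17.1 CPM per kilobase (SD, n = 14). Eef1a1, the form found in most other cells, was at 66.3 ± 28.5 and Eef2 at 17.6 ± 4.56 CPM per kilobase (SD, n = 14). Helicase gene Eif4a1 was at 14.9 ± 5.44 and cap-binding gene Eif4e at 10.6 ± 3.8 CPM per kilobase (SD, n = 14), which did not differ beyond their spread. Eif2b4, a subunit of the exchange factor eIF2B, was listed at 187 ± 56.9 and Eif2ak1, the heme-regulated eIF2 kinase, at 99.2 ± 11.5 CPM per kilobase (SD, n = 14). Both of these rows have exons of other genes on the opposite strand, as do 19 of the 68 members, and the sources used here do not say whether the counting used strand. The inhibitors of eIF4E were scarce, with Eif4ebp2 at 0.201 ± 0.224 CPM per kilobase (SD, n = 14), and Eif4ebp1 and Eif4ebp3 held 22 counts and 1 count over all 36 libraries. These 2 and Eif2ak2, Eif3j2, Eif4e1b, Eif4e3, Eef1akmt3 and Eef1akmt4 did not pass the filter, with at most 146 counts each over all libraries.

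Many mRNAs of the translation machinery start with a C followed by a run of pyrimidines, the terminal oligopyrimidine start that lets mTOR control their translation. Shown here are the starts of Eif3f, Eef2 and Eef1a1, which rose at 4 h, and of Eif2s3x, which did not pass. Eif3l, Eif1 and other members that rose more than Eef1a1 are not shown. Each stretch goes from 10 bases before to 20 bases from the annotated RefSeq start in GRCm38.p6, 5′ to 3′ on the gene's strand. A run that begins at the start is in capitals.
Eif3f, chr7:108934405-108934434, plus strand: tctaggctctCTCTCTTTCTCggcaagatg
Eif2s3x, chrX:94212632-94212661, minus strand: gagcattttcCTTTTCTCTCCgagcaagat
Eef2, chr10:81176621-81176650, plus strand: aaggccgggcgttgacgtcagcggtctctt
Eef1a1, chr9:78481705-78481734, minus strand: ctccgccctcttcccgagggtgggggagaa
Eif3f and Eif2s3x were the members whose annotated start was a C followed by at least 4 pyrimidines (C or T, gene strand only), 2 of 67 starts of the 52 members matched, or 2.99%. The share among all 32851 RefSeq starts was 2.51%. Eif3f was among the members with the largest rise at 4 h, and Eif2s3x, which is shown for contrast, had a fold change of -0.38 (SE 0.205) in WT mice there. A start as annotated can lie some bases from the one used in these cells, so a missing run says only that these letters are not at the annotated base.

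Swimming was followed at 4 h by higher levels of most elongation factor genes and of many initiation factor genes in both genotypes. In WT mice 30 members rose and 8 were lower, and in Shank3 mice 28 rose and 9 were lower, under TMM scaling. Scaled to library totals, which moved the median of all genes to 0.98 in WT and 1.17 in Shank3, 47 rose and 2 were lower in WT and 52 rose and 2 were lower in Shank3. The shares of all genes called under library totals are not given here, so these counts cannot be read as a result about the members. Under TMM scaling the share of members called was 63.3% in WT against 56.0% of all 11341 genes tested, and 61.7% in Shank3 against 62.1%. The share called was thus close to the background, above it in WT and below it in Shank3. The direction was more one-sided. Members that rose were 50.0% in WT against 29.0% of all genes, and 46.7% in Shank3 against 32.7%, while 26.9% of all genes were lower in WT and 29.4% in Shank3. The median fold change of the members was 0.64 in WT and 0.57 in Shank3, and that of all genes 0.23 and 0.22. These values, and those at 1 h, include 8 tested members that would not have passed the filter on naive libraries alone. Eif4ebp2 and Eif3l are among them and rose in both genotypes at 4 h. Such genes were tested only with the swim libraries counted, which favours a rise. The same filter was used for all genes, and shares without the 8 members were not tested. The same 30 members passed in the same direction in both genotypes, 78.9% of those called in WT and 81.1% of those called in Shank3. Over all genes the shares were 86.2% and 77.8%, and these comparisons share no library.

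**Figure D1:**
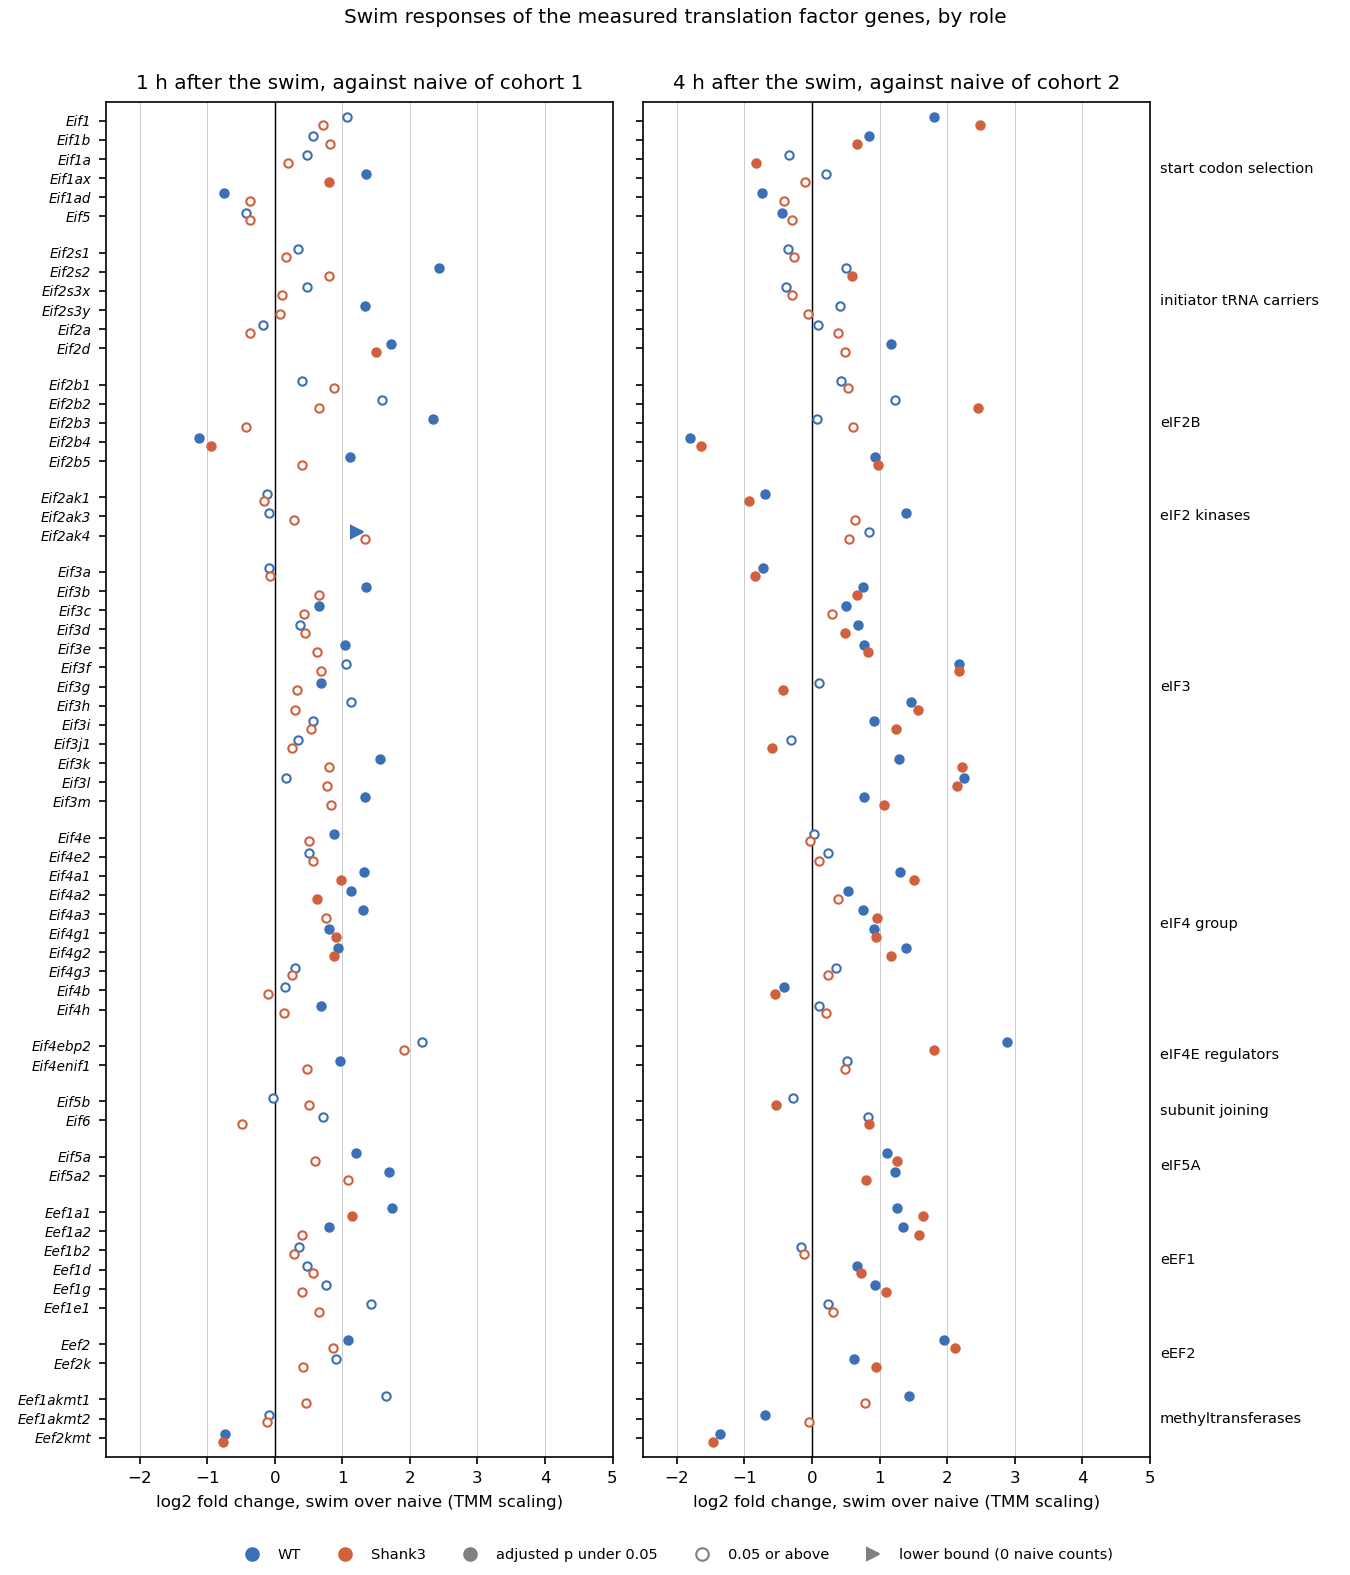
Log2 fold change of each of the 60 tested members (rows, grouped by role) at 1 h (left) and 4 h (right), for WT (blue) and Shank3 (orange), with filled points where the adjusted p was under 0.05. Eif2ak4 had 0 counts in naive WT mice of cohort 1, so an arrowhead stands at its fold against a floor of 3 counts. At 4 h, Eef2, Eif1, Eif3f and Eif3l lie near or above 2 in both genotypes, and Eif2b4 and Eef2kmt lie farthest to the left.

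The share that rose differed with what lies on the opposite strand. Among all tested genes with no exon opposite another gene, 38.3% rose in WT and 44.4% in Shank3 mice at 4 h, and among those with such an exon 18.3% and 19.1%. Lower were 11.2% and 11.6% of the former and 45.2% and 50.1% of the latter. Of the 44 tested members with no opposite exon, 23 rose and 4 were lower in WT, and 23 rose and 4 were lower in Shank3. Of the 16 with one, 7 rose and 4 were lower in WT, and 5 rose and 5 were lower in Shank3. In a fit on the rows with no opposite exon alone, 14 of 41 members rose and 7 were lower in WT, and 16 rose and 9 were lower in Shank3. That is 34.1% up and 17.1% lower against 19.5% and 22.1% of all genes in the WT fit, and 39.0% and 22.0% against 24.6% and 25.1% in the Shank3 fit.

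Elongation factors. Eef2 (chr10:81176631-81182498), the translocation factor, was among the strongest responders. In naive WT mice of cohort 2 its libraries read 38.1, 46.1, 66.7 and 87.7 CPM, and in WT mice at 4 h they read 135, 176, 208, 233 and 408 CPM. In Shank3 mice it went from 59.6, 61.6, 68.9 and 80.6 CPM when naive to a lowest value of 154, a median of 290 and a highest value of 472 CPM at 4 h. Neither genotype had an overlap between naive and swim libraries. Eef2 rose by 1.95 (SE 0.332, edgeR adjusted p = 1.6e-05) in WT and by 2.11 (SE 0.326, edgeR adjusted p = 3.42e-06) in Shank3. Eef2k, the kinase that blocks this factor, also rose, by 0.62 (SE 0.261, edgeR adjusted p = 0.0406) and 0.94 (SE 0.269, edgeR adjusted p = 0.00302). Eef2kmt, the methyltransferase of the same factor, moved the other way and is described with the lower members.

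Both forms of elongation factor 1A rose. Eef1a1 (chr9:78478449-78489151) read 113, 218, 244 and 298 CPM in naive WT libraries and 356, 490, 504, 511 and 756 CPM at 4 h, a fold change of 1.26 (SE 0.289, edgeR adjusted p = 0.000468). Eef1a2 (chr2:181147653-181157014) read 211, 224, 254 and 297 CPM in naive WT libraries and 442, 538, 557, 611 and 1000 CPM at 4 h, a fold change of 1.35 (SE 0.27, edgeR adjusted p = 0.000103). The naive and 4 h libraries did not overlap for either gene. In Shank3 mice the fold changes were 1.64 (SE 0.287) for Eef1a1 and 1.59 (SE 0.266) for Eef1a2. Shank3 replicates 1, 3 and 5 at 4 h stood apart, with Eef1a2 at 1000 to 1160 CPM against 421 to 504 CPM in the other 3 libraries. Of the exchange subunits that reload elongation factor 1A, Eef1g and Eef1d rose in both genotypes, by 0.66 to 1.10, while Eef1b2 did not pass in either. Eef1e1, a scaffold protein of the aminoacyl-tRNA synthetases, did not pass in either. Eif5a, which helps ribosomes through difficult peptide stretches, rose by 1.11 (SE 0.26, edgeR adjusted p = 0.000579) in WT and 1.26 (SE 0.254, edgeR adjusted p = 7.53e-05) in Shank3, and its paralog Eif5a2 rose in both.

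**Figure D2:**
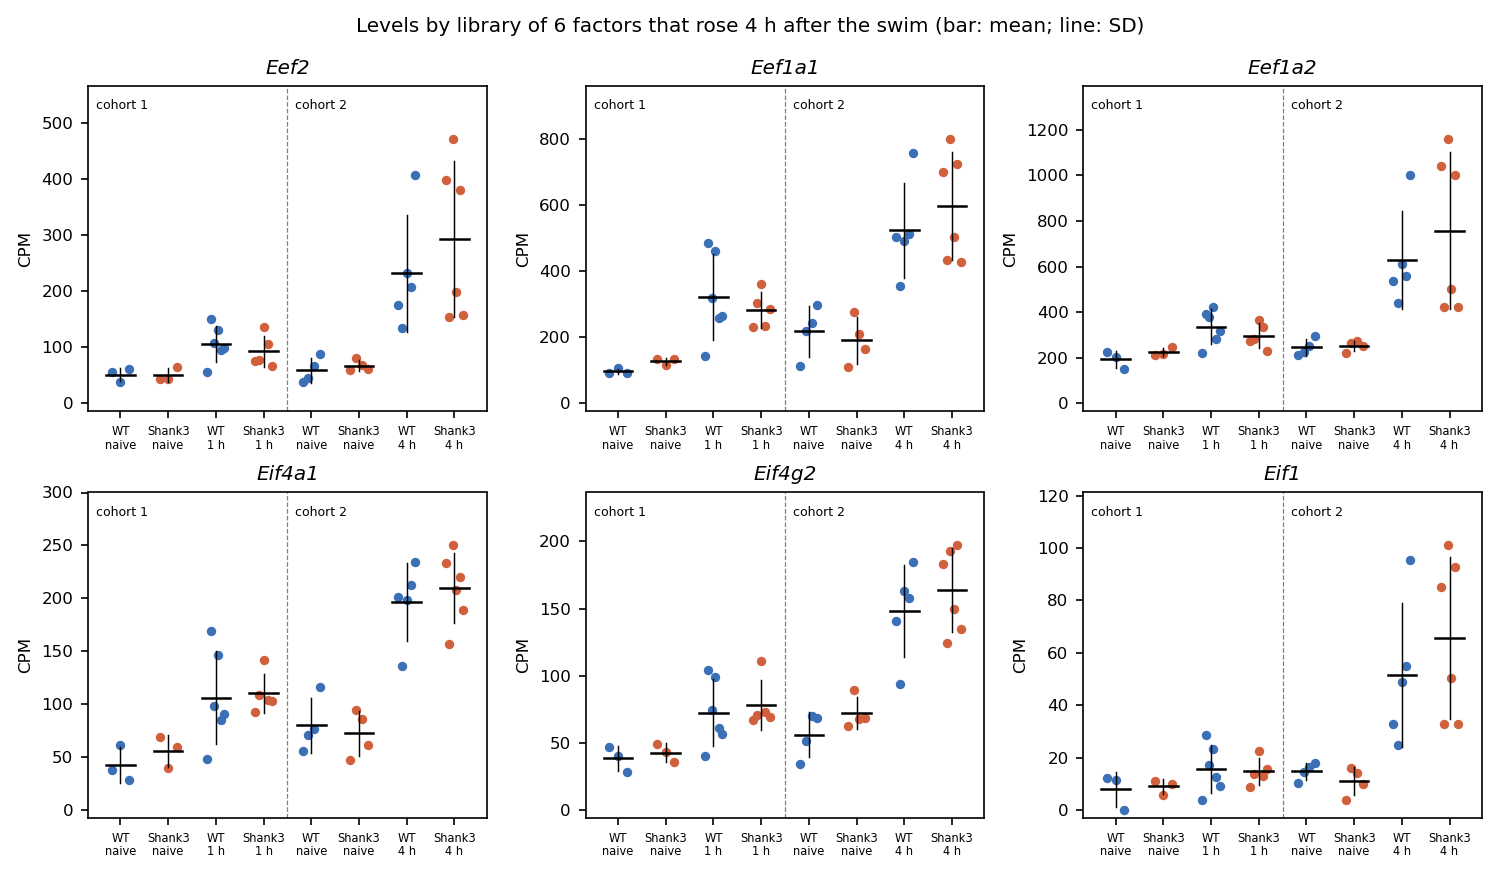
CPM of 6 members that rose at 4 h, 1 point per library, with the group mean (bar) and SD (line), cohort 1 left and cohort 2 right of the dashed line in each panel. For Eef2 the 4 h libraries begin at 135 CPM, above every naive library of cohort 2.

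Cap-binding and scanning group. The eIF4F complex joins the cap-binding protein eIF4E, the scaffold eIF4G and the helicase eIF4A. Eif4a1, the main helicase gene, read 55.4, 71.1, 76.9 and 116 CPM in naive WT libraries and 136, 198, 201, 213 and 234 CPM at 4 h. The groups did not overlap. The rise was 1.30 (SE 0.265, edgeR adjusted p = 0.000131), and 1.51 (SE 0.261, edgeR adjusted p = 1.07e-05) in Shank3 mice. Eif4g2, a scaffold relative that works without eIF4E, rose by 1.39 (SE 0.244) and 1.17 (SE 0.234), and the scaffold Eif4g1 by 0.92 (SE 0.191) and 0.94 (SE 0.186). Eif4e itself read 81.9 ± 10.0 CPM in WT mice at 4 h (SD, n = 5) against 79.6 ± 23.4 CPM when naive (SD, n = 4), a fold change of 0.03 (SE 0.204, edgeR adjusted p = 0.914). In Shank3 mice its fold change was -0.03 (SE 0.199, edgeR adjusted p = 0.902). Under library totals Eif4e had 0.75 (edgeR adjusted p = 0.019) and 0.89 (edgeR adjusted p = 0.00431), below the median shift of all genes in both. Of the other members of the group, Eif4a3, better known as part of the exon junction complex, rose in both genotypes, Eif4a2 rose in WT, and Eif4h, Eif4g3 and Eif4e2 did not pass.

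Eif4ebp2, the main eIF4E inhibitor of neurons, rose by 2.89 (SE 0.641, edgeR adjusted p = 0.000322) in WT and 1.80 (SE 0.502, edgeR adjusted p = 0.00242) in Shank3. It rested on few counts: 4 counts in all naive WT libraries of cohort 2 and 137 in WT mice at 4 h, a ratio of 8.67 after scaling with an exact 95% binomial interval of 3.31 to 32.3, which covers counting error only. It would not have passed the filter on the naive libraries alone.

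eIF3 complex. eIF3 is the large scaffold of the small subunit, and 13 of its 14 genes were tested. In WT mice 10 rose and 1 was lower, and in Shank3 mice 9 rose and 3 were lower. Eif3f, Eif3h, Eif3k and Eif3l had the largest rises, of 1.28 to 2.25 over both genotypes. Eif3f read 1.15, 6.12, 8.97 and 9.21 CPM in naive WT libraries and 11.8, 22.9, 26.5, 27.1 and 53.2 CPM at 4 h, with no overlap and a fold change of 2.18 (SE 0.46, edgeR adjusted p = 0.000188). In Shank3 mice Eif3f rose by 2.17 (SE 0.424, edgeR adjusted p = 5.05e-05). Eif3l stood at 1.99 to 4.08 CPM in naive WT libraries of cohort 2 and 7.53 to 29.2 CPM at 4 h, and it too would not have passed the filter on naive libraries alone. Eif3b, a core subunit, rose by 0.76 (SE 0.226) and 0.67 (SE 0.219).

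Eif3a, the largest core subunit, was lower. It read 185, 281, 295 and 316 CPM in naive WT libraries and 104, 146, 155, 198 and 219 CPM at 4 h, so the groups overlapped, with a fold change of -0.72 (SE 0.235, edgeR adjusted p = 0.0101). In Shank3 mice it was -0.84 (SE 0.226, edgeR adjusted p = 0.00173). No other gene has an exon opposite Eif3a. Scaled to library totals the difference was 0.04 and 0.05, below the median shift of all genes in both genotypes. Both scalings are relative to the other counts of a library, so neither gives the absolute amount of Eif3a mRNA. Under TMM scaling Eif3j1 and Eif3g were lower in Shank3 mice, at -0.60 (SE 0.197) and -0.43 (SE 0.162), and under library totals they were at 0.39 and 0.50. Without the 4 libraries of highest pair share, Eif3a in Shank3 mice was at -0.43 and no longer passed.

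Start selection and the initiator tRNA. Eif1, which guards start codon choice, read 10.4, 14.5, 16.3 and 17.9 CPM in naive WT libraries and 24.9, 32.7, 48.9, 55.0 and 95.6 CPM at 4 h, with no overlap. It rose by 1.80 (SE 0.43, edgeR adjusted p = 0.000692) in WT and by 2.48 (SE 0.438, edgeR adjusted p = 1.53e-05) in Shank3. Its paralog Eif1b rose by 0.84 (SE 0.242) and 0.67 (SE 0.231). Eif5, which activates GTP hydrolysis by eIF2, was lower in WT under TMM scaling at -0.44 (SE 0.171, edgeR adjusted p = 0.0282) and at 0.34 under library totals. Eif2s1, which encodes the eIF2 subunit that stress kinases phosphorylate, did not pass in either genotype, at -0.36 (SE 0.197) and -0.26 (SE 0.191). Eif2s3x did not pass either, and Eif2s2 rose in Shank3 by 0.59 (SE 0.23, edgeR adjusted p = 0.0259). Eif2s3y, the Y-linked form of Eif2s3x, had counts in all 36 libraries, at 1 to 44 each. Near-identical copies, such as Eif1a and Eif1ax or the X and Y forms of Eif2s3, may share reads, and the sources used here do not say how such reads were counted.

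eIF2B and the eIF2 kinases. eIF2B recharges eIF2 with GTP, and kinases that phosphorylate eIF2 block it in the integrated stress response. Eif2b5, the catalytic subunit, rose by 0.93 (SE 0.28, edgeR adjusted p = 0.00545) in WT and 0.97 (SE 0.282, edgeR adjusted p = 0.00353) in Shank3. Eif2b4 (chr5:31187558-31193430), a regulatory subunit, was lower. It read 282, 346, 409 and 615 CPM in naive WT libraries and 75.3, 103, 112, 112 and 189 CPM at 4 h, with no overlap. Its difference was -1.81 (SE 0.275, edgeR adjusted p = 5.88e-06) in WT and -1.64 (SE 0.261, edgeR adjusted p = 4.37e-06) in Shank3. Under library totals Eif2b4 stayed lower, at -1.04 (edgeR adjusted p = 2.05e-05) and -0.68 (edgeR adjusted p = 0.00049). Its exons share 204 bases with Snx17 on the opposite strand, and Snx17 was lower as well, at -1.11 (SE 0.178) and -0.80 (SE 0.172).

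Of the 4 eIF2 kinases, Eif2ak1 was lower under TMM scaling and Eif2ak2 was not tested. Eif2ak1 (chr5:143817788-143904251) read 482, 507, 508 and 524 CPM in naive WT libraries and 223, 282, 311, 323 and 418 CPM at 4 h, with no overlap and a fold change of -0.70 (SE 0.207, edgeR adjusted p = 0.00462). In Shank3 mice it was -0.93 (SE 0.197, edgeR adjusted p = 0.000149). Under library totals Eif2ak1 was at 0.03 and 0.01. Its exons face those of Ankrd61 and Aimp2, both lower at 4 h in both genotypes, at -0.59 to -1.36. Eif2ak3, the kinase of the endoplasmic reticulum, rose in WT by 1.39 (SE 0.593, edgeR adjusted p = 0.0435) from 6 counts in the naive group to 64, and would not have passed the filter on naive libraries alone, and Eif2ak4, which senses uncharged tRNA, did not pass at 4 h.

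Eef2kmt, with exons opposite those of Alg1 and Gm15983, was the other member lower under both scalings. Its libraries read 70.7, 77.7, 79.0 and 100 CPM in naive WT mice and 23.9, 26.4, 35.1, 35.2 and 39.5 CPM at 4 h, with no overlap. Its difference was -1.36 (SE 0.216, edgeR adjusted p = 7.72e-06) in WT and -1.47 (SE 0.208, edgeR adjusted p = 1.65e-06) in Shank3, and -0.60 and -0.54 under library totals. Alg1 and Gm15983 were lower too, at -1.08 to -2.95. Eif4b, a helper of the helicase with no gene opposite, was at -0.41 (SE 0.167, edgeR adjusted p = 0.0341) in WT and -0.55 (SE 0.161, edgeR adjusted p = 0.00371) in Shank3 under TMM scaling and at 0.33 and 0.38 under library totals.

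**Figure D3:**
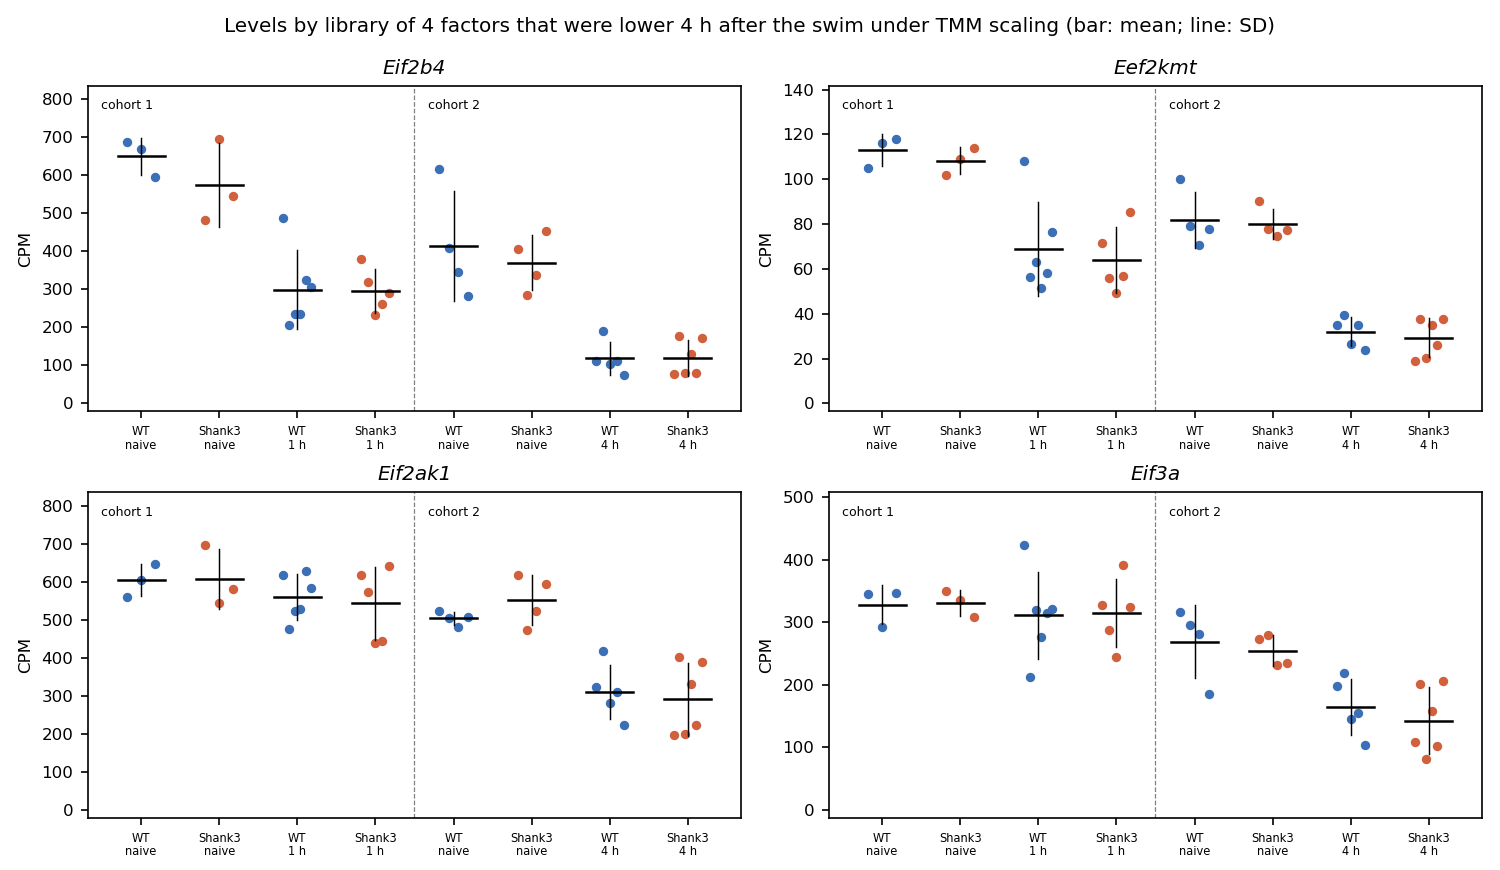
CPM of 4 members that were lower at 4 h under TMM scaling, 1 point per library, with the group mean (bar) and SD (line), cohort 1 left and cohort 2 right of the dashed line. Eif2b4 lies at 75.3 to 189 CPM in WT mice at 4 h and at 282 to 615 CPM in naive WT mice of cohort 2, and the groups of Eif3a overlap in WT.

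The pair share moved with these levels in individual libraries. Within the 4 h groups, WT replicate 5 with a pair share of 31.6% had Eef2 at 408 CPM and Eif2b4 at 75.3 CPM, and WT replicate 2 with 17.0% had Eef2 at 135 CPM and Eif2b4 at 189 CPM. In a model with the log2 pair share of each library as a covariate, its slope passed the threshold for 39 of the 60 members, 65.0%, of which 31 were positive and 8 negative, against 62.9% of all genes. The slope was 1.83 for Eef2, 1.35 for Eef1a1, -1.55 for Eif2b4 and -1.17 for Eif3a in log2 units per doubling of the pair share, and 0.09 (edgeR adjusted p = 0.657) for Eif4e. With this covariate 1 member, Eif2b4 at -0.60 (edgeR adjusted p = 0.00501), passed in WT mice at 4 h and 0 passed in Shank3 mice. Eef2 was then at 0.44 (edgeR adjusted p = 0.0789) in WT and 0.31 (edgeR adjusted p = 0.416) in Shank3. The lowest pair share at 4 h was above that of every naive library, so at 4 h the swim and the pair share cannot be told apart. Without the 4 libraries over 30%, 29 members rose and 5 were lower in WT, and 17 rose and 4 were lower in Shank3. Eef2 was then at 1.66 and 1.32. Bulk libraries cannot tell fewer cells of a type from less RNA per cell, and without total RNA beside the ribosome-bound RNA, mRNA amount and ribosome loading cannot be told apart.

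**Figure D4:**
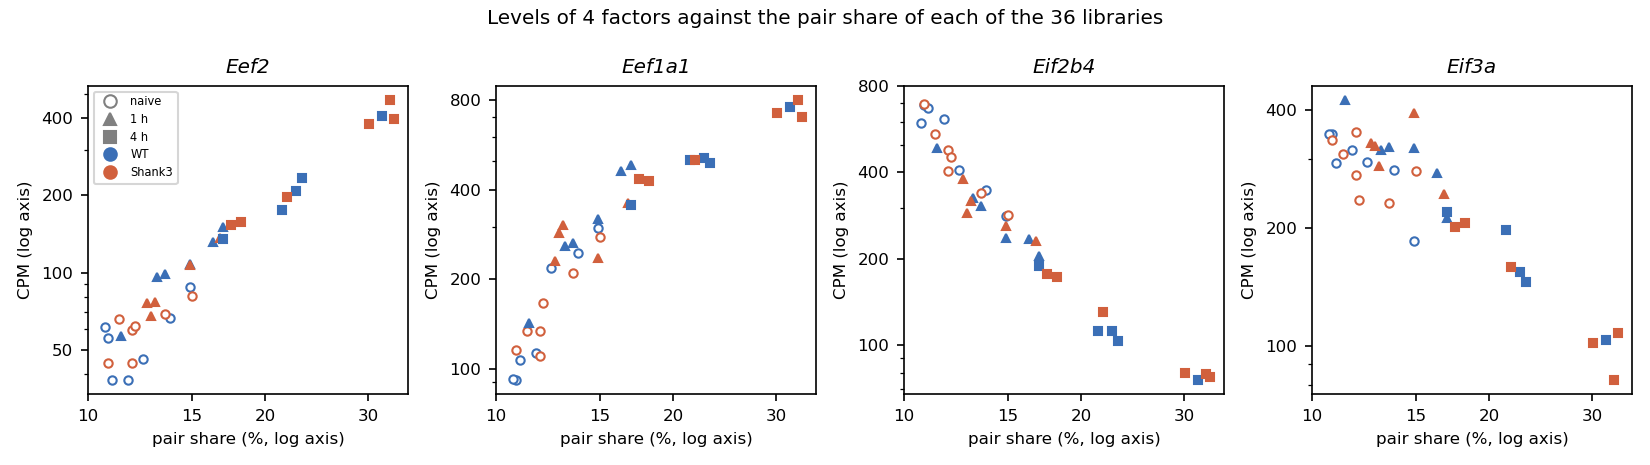
CPM against the pair share of each of the 36 libraries (both axes logarithmic) for Eef2, Eef1a1, Eif2b4 and Eif3a, with open circles for naive, triangles for 1 h and squares for 4 h libraries, WT in blue and Shank3 in orange. Eef2 and Eef1a1 go up and Eif2b4 and Eif3a go down along the pair share, and every 4 h library lies at 17.0% or above.

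At 1 h more members passed in WT than in Shank3 mice, and most of those that passed rose. In WT mice 26 members rose and 3 were lower, 48.3% called against 34.2% of all genes, and the members' median was 0.80 against 0.24. In Shank3 mice 7 rose and 2 were lower, 15.0% called against 12.2% of all genes (4.99% higher and 7.25% lower), with a median of 0.49 against 0.09. The background in WT was 16.9% higher and 17.3% lower. All 9 members called in Shank3 were also called in WT, in the same direction, as were 83.6% of all genes called in Shank3. The 9 were 31.0% of the members called in WT, against 29.9% over all genes. The count in WT was 19 without naive WT replicate 2 and 17 without naive WT replicate 3. The count in Shank3 was 0 without naive Shank3 replicate 2, 1 without naive Shank3 replicate 3, and 2 and 4 without Shank3 replicates 3 and 4 at 1 h. The difference between the genotypes was tested itself and passed for 0 members (edgeR's interaction test; 2 at an unadjusted p under 0.05, and 0 by DESeq2 and limma). The pair share of every 1 h library was above that of each naive library of its own genotype in cohort 1. It overlapped only with naive libraries of the other cohort or genotype. Within these comparisons the swim and the pair share thus cannot be told apart at 1 h either. With the pair share as a covariate 20 members rose and 1 was lower in WT, and 8 rose and 2 were lower in Shank3. For the same reason these counts cannot show a swim response apart from the pair share.

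Eef1a1 rose in both genotypes at 1 h. It read 91.6, 92.6 and 107 CPM in naive WT libraries of cohort 1, and at 1 h its lowest value was 143, the median 292 and the highest 485 CPM. The groups did not overlap, and the fold change was 1.73 (SE 0.334, edgeR adjusted p = 0.000673). In Shank3 mice it went from 116, 134 and 134 CPM to 231, 235, 285, 305 and 361 CPM, a fold change of 1.14 (SE 0.326, edgeR adjusted p = 0.0255). In naive mice of cohort 2 Eef1a1 was at 113 to 298 CPM in WT and 110 to 278 CPM in Shank3, which overlaps the 1 h values of both genotypes. With the pair share as covariate Eef1a1 was at 1.14 (edgeR adjusted p = 0.000655) and 0.74 (edgeR adjusted p = 0.0161). Eef1a2 and Eef2 rose in WT, by 0.80 (SE 0.292, edgeR adjusted p = 0.0323) and 1.08 (SE 0.373, edgeR adjusted p = 0.0243), and with the covariate they were at 0.18 and 0.31 and did not pass.

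Eif4a1, Eif4a2, Eif4g1 and Eif4g2 rose at 1 h in both genotypes, and the scaffold gene Eif4g3 passed in neither, at 0.30 (SE 0.18) and 0.26 (SE 0.18). Eif4a2, the helicase gene typical of neurons, was at 1.13 (SE 0.215, edgeR adjusted p = 0.000626) in WT and 0.62 (SE 0.211, edgeR adjusted p = 0.0469) in Shank3, and Eif4a1 at 1.32 (SE 0.312) and 0.98 (SE 0.302). Eif4g1 was at 0.80 (SE 0.227) and 0.90 (SE 0.221), and Eif4g2 at 0.94 (SE 0.287) and 0.87 (SE 0.28). Eif4e rose in WT by 0.88 (SE 0.247, edgeR adjusted p = 0.00754), from 29.4, 43.7 and 50.2 CPM to a range of 41.5 to 98.6 CPM. Naive WT libraries of cohort 2 read 48.5 to 99.7 CPM for Eif4e. Of the start selection genes Eif1ax rose in both, at 1.35 (SE 0.277) and 0.80 (SE 0.26), and of the tRNA carriers Eif2d, an initiation factor that acts outside the eIF2 route, at 1.72 (SE 0.406) and 1.5 (SE 0.359). Eif2b4 and Eef2kmt were already lower in both genotypes, Eif2b4 at -1.12 (SE 0.279) and -0.95 (SE 0.291). Eef2kmt was at -0.73 (SE 0.226) and -0.76 (SE 0.229), and under library totals neither Eef2kmt in either genotype nor Eif2b4 in Shank3 passed, with all 3 values below 0.

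Some responses of WT mice at 1 h rested on few counts in the 3 naive libraries. Eif2s2 had 6 counts in naive WT and 144 at 1 h, a scaled ratio of 5.77 with an exact 95% binomial interval of 2.59 to 16.0, and rose by 2.43 (SE 0.429, edgeR adjusted p = 0.000426). Naive Shank3 libraries of cohort 1 held 8 to 11 counts of Eif2s2 each. In naive WT mice of cohort 2 Eif2s2 was at 9.23 to 23.7 CPM, against 1.73 to 4.71 CPM in naive WT mice of cohort 1 and 9.72 to 22.9 CPM in WT mice at 1 h. Eif2b3 had 3 counts in naive WT and 68 at 1 h, a ratio of 5.45 (interval 1.79 to 27.1). Eif2ak4 had 0 counts in naive WT and 29 at 1 h. It would not have passed the filter on the naive libraries alone. Against a floor of 3 counts over the naive group it was 2.32-fold higher, with a 95% lower limit of 1.77 that covers counting error only. With Eif2ak4 set by this floor the members' median stayed at 0.80. Eif2s2 and Eif2b3 had the smallest p of the tested members for a difference between genotypes in the 1 h response, at -1.62 (SE 0.557) and -2.76 (SE 0.808), both with an edgeR adjusted p of 1.0.

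The 4 h response less the 1 h response, averaged over genotypes, passed for 13 members, 3 with a larger and 10 with a smaller response at 4 h, 21.7% against 12.4% of all genes (3.74% higher and 8.61% lower). Eef1a2, Eif3l and Eef2 had a larger response at 4 h, with differences of 0.87 (SE 0.271, edgeR adjusted p = 0.0297), 1.73 (SE 0.543, edgeR adjusted p = 0.0311) and 1.06 (SE 0.34, edgeR adjusted p = 0.0347). With the pair share as covariate none of these 3 passed, at 0.06, 0.79 and 0.08. Eif1ax and Eif1a had a smaller response at 4 h, with differences of -1.03 (SE 0.242, edgeR adjusted p = 0.00531) and -0.91 (SE 0.22, edgeR adjusted p = 0.00616), and with the covariate Eif1ax was at -1.09 (edgeR adjusted p = 0.00322). Eif4e, Eif2s2, Eif3g, Eif3j1, Eif2ak1, Eif5b, Eif4b and Eef2kmt were the other members with a smaller response, at -0.51 to -1.07. These are differences of responses, not of levels. For Eif1ax in WT the levels were 64.0 ± 15.6 CPM at 1 h (SD, n = 6) and 60.3 ± 8.33 CPM at 4 h (SD, n = 5), and the naive libraries stood at 19.6 to 34.5 CPM in cohort 1 and 39.5 to 67.8 CPM in cohort 2. Eif2s2 and Eif4e had higher mean levels at 4 h than at 1 h in both genotypes, and higher naive means in cohort 2 than in cohort 1. This contrast also sets cohort 2 against cohort 1, and the count depended on single libraries: it was 5 and 6 without naive WT replicates 1 and 2, 7, 6 and 8 without naive Shank3 replicates 2, 3 and 4, and 8 without WT replicate 5 at 4 h. Under library totals 2 members passed, Eef1a2 and Eif3l, and without the 4 libraries of highest pair share 3 passed, all with a smaller response at 4 h.

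In edgeR no member passed for genotype. In naive mice 0 members passed, against 0.00882% of all genes (1 gene), with 4 members at an unadjusted p under 0.05 and 0 passing by DESeq2 and limma. At 1 h 0 members passed against 0.0% of all genes, and 1 member was at an unadjusted p under 0.05. At 4 h 0 passed against 0.00882% in edgeR and 0 in DESeq2, with 0 at an unadjusted p under 0.05, while limma with library quality weights called 13 members, 8 higher and 5 lower, or 21.7% of members against 24.6% of all genes in that fit. Averaged over conditions 0 members passed against 0.0265% of all genes, with 2 at an unadjusted p under 0.05 and 0 passing by DESeq2 and limma. The median over members was 0.12 when naive, -0.09 at 1 h and 0.04 at 4 h.

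The smallest p in naive mice belonged to Eif3g, a scanning subunit of eIF3, at 0.45 (SE 0.149, edgeR adjusted p = 0.89). It read 37.7, 38.0, 41.5, 46.1, 46.2, 51.0 and 75.7 CPM over the naive WT libraries of both cohorts, and had a lowest value of 48.8 and a highest of 88.7 CPM in naive Shank3 mice, so the groups overlapped. Eif4enif1, which carries eIF4E into the nucleus, was at 0.55 (SE 0.238) when naive, 0.38 (SE 0.122) averaged over conditions, each with an edgeR adjusted p of 1.0. The translocation factor Eef2 showed the size of difference that was within the spread, at 232 ± 105 CPM in WT (SD, n = 5) and 294 ± 139 CPM in Shank3 mice at 4 h (SD, n = 6). The 4 h response differed between genotypes for 0 members in edgeR, 1 at an unadjusted p under 0.05, against 0.0% of all genes.

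**Figure D5:**
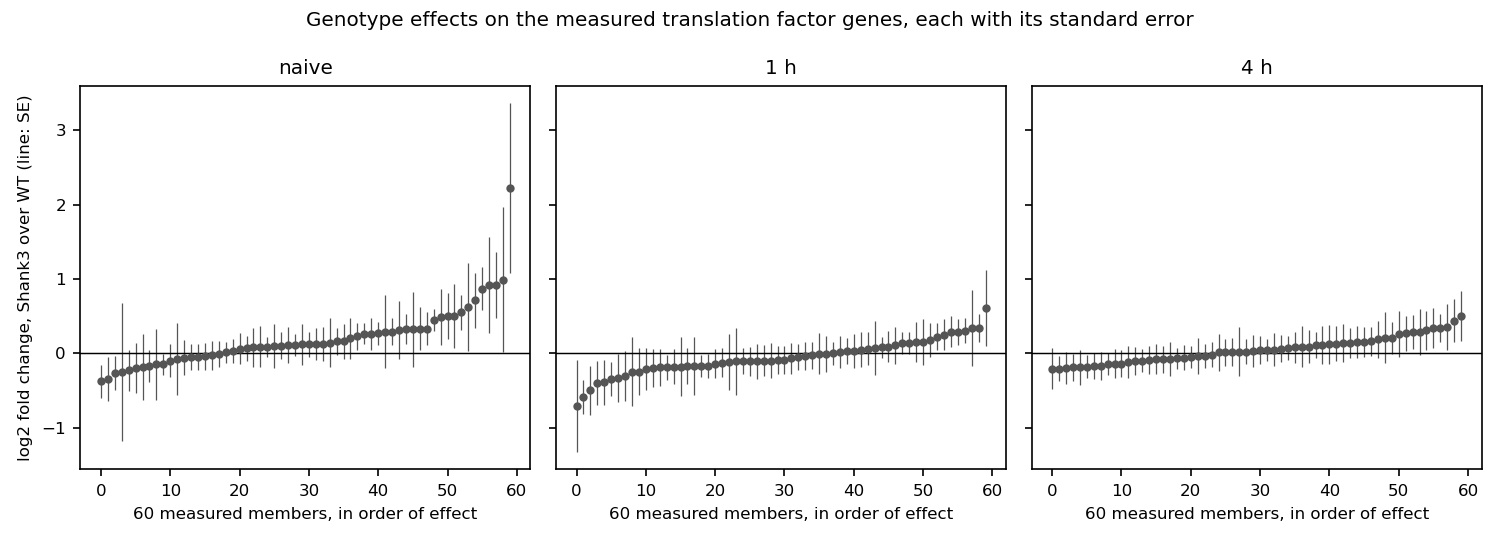
Log2 fold change of Shank3 over WT for the 60 tested members when naive and at both times after the swim, ordered by size within each panel, with the SE as a line. No member had an adjusted p under 0.05 in edgeR, and the widest lines, on Eif2ak4 and other genes with few counts, are in the naive panel.

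Neighbouring genes of the pathway, from lists chosen with earlier results of these data known, are given under TMM scaling, and their counts stand beside 29.0% higher and 26.9% lower over all genes in WT at 4 h and 32.7% and 29.4% in Shank3. Of 22 cytosolic aminoacyl-tRNA synthetases, the enzymes that charge tRNAs, 11 rose and 3 were lower in WT mice at 4 h and 12 rose and 2 were lower in Shank3 mice. Gars, the glycyl-tRNA synthetase, had the smallest p among those that rose, at 1.26 (SE 0.238) and 1.42 (SE 0.236). Mars, with an exon opposite another gene, had the smallest p of this list in WT and was lower there, at -1.32 (SE 0.207). Of 19 tested genes of mTOR and ERK input to translation, 7 rose and 3 were lower in WT and 11 rose and 4 were lower in Shank3, and Rps6kb2, a ribosomal S6 kinase gene with an exon opposite another gene, was lower in both at -1.09 (SE 0.251) and -1.41 (SE 0.241). Of 10 tested genes of the integrated stress response, 4 rose and 2 were lower in WT and 5 rose and 2 were lower in Shank3, with Atf4, its transcription factor, at 1.24 (SE 0.248) and 1.09 (SE 0.238). Atf5, with an exon opposite another gene, was lower in Shank3 at -1.52 (SE 0.333).

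Cofactors of the poly(A) tail, the cap and scanning were more even, with 3 of 14 up and 2 lower in WT and 4 and 4 in Shank3. Pabpc1, the poly(A)-binding protein, rose in WT by 0.94 (SE 0.198) and its inhibitor Paip2 was lower at -0.64 (SE 0.16). Of 7 tested termination and recycling genes 2 rose and 1 was lower in WT, and 1 rose and 1 was lower in Shank3. Etf1, the release factor, rose in both at 0.95 (SE 0.238) and 0.82 (SE 0.229), and Gspt2, its partner GTPase, was lower in both at -0.70 (SE 0.195) and -0.60 (SE 0.19). Of 8 tested mitochondrial translation factors 3 rose and 3 were lower in WT and 1 rose and 3 were lower in Shank3. In edgeR 0 genes of these 6 lists passed for genotype, naive, at 1 h, at 4 h or averaged over conditions.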

How the data were processed

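Per the labels, RNA bound to HA-tagged ribosomes was pulled from mouse cortex and sequenced from stranded libraries. The authors' deposited files hold raw counts per gene for 36 libraries, not normalized. The submitters' processing notes name Trimmomatic 0.39, HISAT2 2.2.0, StringTie 2.1.3, Salmon 1.4 and mm10; the sources used here do not say which of them made the counts.

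Counts were fitted with edgeR 4.0.16 (quasi-likelihood, robust, TMM, filterByExpr, 11341 genes) on 8 cells of genotype, treatment and cohort with 28 residual degrees of freedom. Adjusted p-values are Benjamini-Hochberg over all genes, threshold 0.05, in each of 11 comparisons. The SE is the absolute fold change over the square root of F. Opposite-strand exons come from GENCODE vM21. Alternatives used DESeq2 1.42.0, limma 3.58.1, other scalings, filters and covariates, and left out libraries. The fit was tested on simulated data. Libraries are not tied to named animals, so a p-value reflects only variation among libraries, which may be technical.

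The members, roles, lists and tests were chosen with earlier results of these data known. Named are at most 12 rising and 12 falling members by p in each comparison, or the 4 of smallest p, and a fixed set of core factors; further members are named where a role is described, after their values were seen. The 2 sets of left-out libraries were chosen after seeing the data.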

Additional observations from a re-analysis of the deposited data

Results flagged for a closer look

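Within groups of 4 to 6 libraries, 264 combinations of tested member and group were examined for a library far from the others. The gap to the nearest other library was set against the whole range of the group, and 6 combinations were flagged. Chance alone flags about 1 in 20 groups. The combinations share libraries and are not independent, so their number cannot be judged against that rate. Naive WT replicate 4 of cohort 2 had Eif1ad at 39.2 CPM (18.9 to 20.4 in the other 3) and Eif5b at 321 CPM (252 to 261). Naive Shank3 replicate 4 of cohort 2 had Eif4ebp2 at 0.0 CPM (2.86 to 3.56 in the other 3). WT replicate 1 at 4 h had Eif1ad at 9.35 CPM (14.7 to 16.9 in the other 4). In Shank3 mice at 1 h, replicate 5 had Eif4b at 156 CPM (207 to 222) and replicate 3 had Eif4g2 at 111 CPM (66.7 to 73.2).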

How the results depend on the processing

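Leaving out 1 library at a time gave 17 to 33 called members in WT at 1 h, 0 to 10 in Shank3 at 1 h, 28 to 42 in WT at 4 h, 32 to 38 in Shank3 at 4 h and 5 to 17 for the 4 h less the 1 h response, and 0 for every genotype and interaction comparison. Scaled to library totals, 45 members passed in WT and 19 in Shank3 at 1 h, and 2 for 4 h less 1 h. At 4 h in WT that scaling turned Eif2ak1 to 0.03, Eif3a to 0.04, Eif1ad and Eef1akmt2 each to 0.05, Eif4b to 0.33 and Eif5 to 0.34. In Shank3 it turned Eif2ak1 to 0.01, Eif3a to 0.05, Eif1a to 0.08, Eif5b to 0.35, Eif4b to 0.38, Eif3j1 to 0.39 and Eif3g to 0.5. With the pair share as a covariate 1 member passed in WT and 0 in Shank3 at 4 h, and 8 for 4 h less 1 h; Eif2ak1 turned to 0.06 and Eif3a to 0.18 in WT, and Eif3a to 0.14 and Eif5b to 0.08 in Shank3. Rows with no opposite exon alone, where fewer members were tested, gave 8 in WT and 3 in Shank3 at 1 h, and 21 in WT at 4 h. In that fit the share called in WT at 1 h was 19.5% of members against 18.5% of all genes. It was 7.32% against 4.57% in Shank3 at 1 h, and 51.2% against 41.6% in WT at 4 h. The additive cohort term gave 16 in Shank3 at 1 h. There limma gave 15, 25.0% of members against 25.4% of all genes. For genotype at 4 h limma gave 13, 21.7% of members against 24.6% of all genes. For 4 h less 1 h, DESeq2's size factors and no filter each gave 7. Without the 3 libraries rich in ribosomal RNA that count was 4. Without the 4 libraries of highest pair share it was 3, with 14 in Shank3 at 1 h and 21 in Shank3 at 4 h. With the replicate number as a block, 2 members passed in Shank3 at 1 h and 3 for 4 h less 1 h. Same-numbered libraries of different groups had a median r of -0.00481 over 82 pairs, with a range of -0.547 to 0.735. For different numbers the median was 0.00165, with a range of -0.789 to 0.801. These pairs include libraries of different cohorts, so whether the numbers pair libraries within a cohort cannot be told from them. Counts given in this section without the share of all genes beside them cannot be read against a background. Where no cause is given here, the cause was not tested. Members at under about 10 counts in a naive group are limited by depth.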
